A study of Caenorhabditis elegans with 4 samples.

Results

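Neprilysin (nep) and astacin (nas) genes encode the members of a pair of zinc metallopeptidase families of C. elegans. They were taken from the deposited gene table by their symbols, nep or nas followed by a number. This gave 25 neprilysin genes and 36 astacin genes, 61 of the 46766 genes in the table. Members were taken by symbol alone, but the families themselves were selected on their differences between GNC and control in these same libraries. The counts of changed members and the fold changes below are therefore a description, with no test of the families.

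Both groups were wild-type N2 worms, the standard laboratory strain of C. elegans, with an age of 22 days and with E. coli OP50 as food. The GNC group (2 libraries) received Gengnianchun, a traditional Chinese medicine formula made of water extracts of herbs, at 3.94 mg/mL, and the control group (2 libraries) received water. The protocol and the methods name S-complete liquid medium, whereas the design text of the series names plates of nematode growth medium. Each library came from a synchronized population of whole worms. No source used here says whether the libraries of a group came from separate cultures, so the p-values measure the spread between these libraries, which may be technical.

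Neprilysins (peptidase family M13) are mostly membrane-bound enzymes whose active site faces the outside of the cell, where they cut small peptides such as neuropeptides. Human neprilysin is known as an enzyme that degrades the β-amyloid peptide. Astacins (family M12A) are secreted enzymes or enzymes bound to the extracellular matrix. In worms they are known for digestion, hatching, the processing of collagen and the shedding of the cuticle at each moult, and their relatives in vertebrates include the procollagen peptidase BMP1.

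The comparison asked how the RNA of each gene differed between GNC-treated and control worms. The total count per library ranged from 18639631 to 21753657 fragments. Counts were scaled with edgeR's TMM method, and the scaled values, called normalized counts below, are in CPM, counts per 1000000 fragments. A gene was tested with edgeR's quasi-likelihood F-test if it passed a filter on low counts, and adjusted p-values (FDR) are from Benjamini-Hochberg adjustment over all 16341 genes tested. A gene was called at an FDR under 0.05 and a change of at least 2-fold, the thresholds of the study.

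More of these peptidase genes were called higher than lower in GNC-treated worms, and no gene with a nep or nas symbol was called lower at 2-fold. An astacin gene under another symbol, hch-1, was. Among the 24 neprilysin genes tested, 5 were called higher (nep-9, nep-13, nep-16, nep-20 and nep-25), and among the 28 astacin genes tested, 3 were called higher (nas-17, nas-20 and nas-24). Of all genes tested, 4.97% were called higher and 2.23% lower. With the FDR alone and no fold threshold, 11 neprilysin genes rose and 2 fell, and 5 astacin genes rose and 2 fell, where the shares among all genes tested were 19.8% higher and 20.5% lower. When edgeR tested against the 2-fold threshold itself rather than against no change, 0 members were called, with an unadjusted p under 0.05 for 1 neprilysin gene (nep-9) and 2 astacin genes (nas-20 and nas-24). In the main test, unadjusted p-values were under 0.05 for 16 neprilysin and 10 astacin genes. The median log2 fold change was 0.42 over the neprilysin genes tested and 0.33 over the astacin genes tested, beside 0.02 over all genes tested. With offsets that depend on expression, which level the fold change over the range of abundance, these medians were 0.30 for neprilysin and 0.16 for astacin genes, beside -0.01 for all genes. Each GNC library was above each control library in 17 of the 24 neprilysin and 18 of the 28 astacin genes tested. The share was 36.5% among all genes tested. The neprilysin count includes nep-19, which met the filter on low counts only in GNC libraries and so had to be higher. This gene is also in the family medians. In 2 genes of each family each GNC library was below each control library, beside 34.5% of all genes tested. The 4 members that fell, nep-1, nep-17, nas-9 and nas-11, were among the most abundant of their families.

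**Figure D1:**
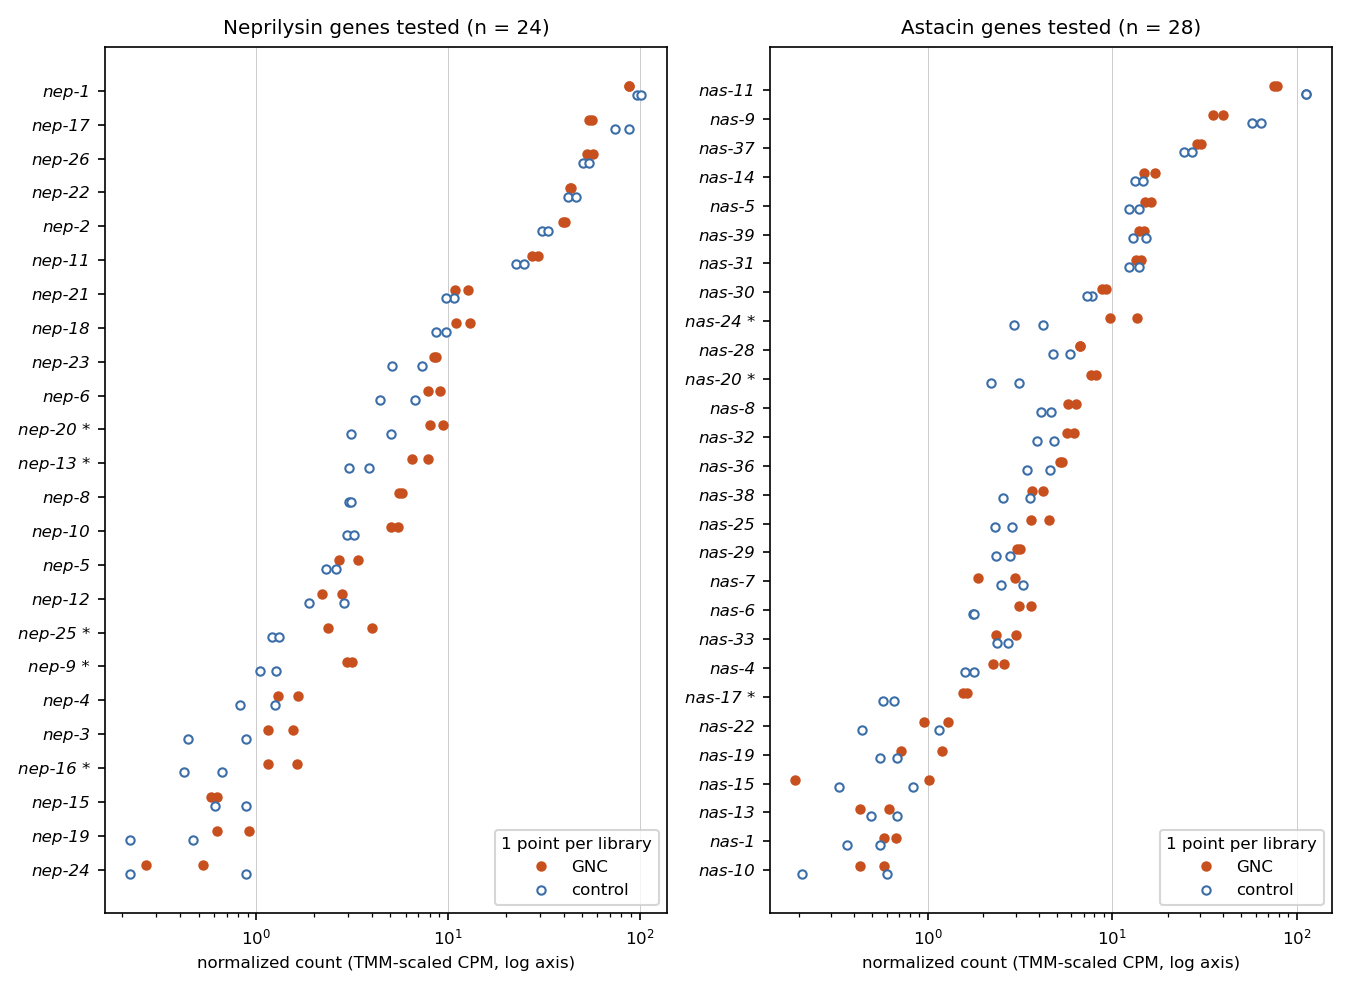
Normalized counts (TMM-scaled CPM, logarithmic axis) of the 24 neprilysin genes (left) and 28 astacin genes (right) that were tested, with 1 point per library, filled for GNC and open for control, and genes ordered by abundance. Asterisks mark the 8 called genes, in which both GNC points lie to the right of both control points, while nep-1, nep-17, nas-9 and nas-11 near the top lie the other way.

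Among the neprilysins with a known role in the worm, nep-1 was slightly lower with GNC and nep-2 was higher. NEP-1 is known to act in locomotion and pharyngeal pumping, and its gene had the highest level per gene length of the family. Its level was 36.1 and 35.8 FPKM in the GNC libraries, against 37.1 and 38.4 FPKM in the control libraries. As normalized counts, nep-1 (chromosome II, 11654212 to 11657172) had 88.1 and 87.6 CPM with GNC and 96.4 and 102 CPM in control worms. The groups did not overlap, and the difference was small: the log2 fold change of -0.17 ± 0.06 (SE) had an adjusted p of 0.0385 in edgeR's quasi-likelihood test. This p-value lost significance without GNC replicate 1 (adjusted p = 0.115), without GNC replicate 2 (0.131) and without control replicate 2 (0.154), within a range of 0.0237 to 0.352 over all alternatives.

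NEP-2 is known to limit the neuropeptide SNET-1 in olfactory learning. The nep-2 gene (chromosome II, 2717522 to 2725541) had 896 and 847 counts with GNC, against 558 and 633 counts in control worms. Scaled, these were 39.8 and 40.7 CPM with GNC and 30.7 and 33.0 CPM in control worms. The groups were clearly apart, and nep-2 rose by 0.33 ± 0.08 (SE) on the log2 scale, with an adjusted p of 0.00731 in this edgeR test. The gene of its substrate, snet-1, had 446 and 361 counts with GNC and 276 and 372 counts in control worms. Its groups overlapped once scaled to CPM, and its log2 fold change of 0.10 did not pass the test (edgeR adjusted p = 0.580).

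The called neprilysin genes are known here by their family only, and all of them had low counts. First among them was nep-9 (WBGene00017554, chromosome II, 3395821 to 3399303), with 71 and 62 counts with GNC, against 23 and 20 counts in control worms. Its normalized count was 3.06 ± 0.124 CPM with GNC and 1.15 ± 0.157 CPM in control worms (SD, n = 2 each). This log2 fold change of 1.41 (standard error 0.26, edgeR adjusted p = 0.00208) was the largest of its family. The gene was called in all 14 alternatives that gave it a fold change and a test against no change, with log2 fold changes of 1.23 to 1.55. The calls of the other 4 genes depended on single libraries and on the method.

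The nep-20 gene (WBGene00020293, chromosome II, 3391964 to 3395031) had 181 and 196 counts with GNC, against 91 and 60 counts in control worms. The control libraries differed more from each other than the GNC libraries did, and the log2 fold change was 1.10 (standard error 0.21, edgeR adjusted p = 0.00262). It was 0.98 without GNC replicate 2 and 0.79 without control replicate 2, under the 2-fold threshold. For nep-13 (WBGene00018196, chromosome II, 3282653 to 3287152) the counts were 177 and 135 with GNC and 70 and 58 in control worms. The log2 fold change of nep-13 was 1.06 (standard error 0.19, edgeR adjusted p = 0.00192), and it was 0.91 without GNC replicate 1 and 0.89 without control replicate 2. Both genes kept an adjusted p under 0.05 when any single library was left out. With no filter on low counts, 29615 genes were tested, and the spread between replicates was estimated over all of them. The tests of nep-2, nep-13, nep-16, nep-20 and nep-25 were then lost, at edgeR adjusted p-values of 0.0541 to 0.109. Those of nep-1, nep-6, nep-11, nep-17, nep-18, nas-6 and nas-25 were lost too. With expression-dependent offsets the log2 fold change was 0.89 for nep-20 and 0.85 for nep-13, again under the 2-fold threshold.

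The nep-25 gene (WBGene00022874, chromosome II, 5842243 to 5845020) had 90 and 49 counts with GNC, against 22 and 25 counts in control worms. GNC replicate 1 was the higher by far. The log2 fold change of nep-25 was 1.34 (standard error 0.32, edgeR adjusted p = 0.00789), and without GNC replicate 1 it was 0.90 with an adjusted p of 0.106, within a range of 0.000592 to 0.109 over the alternatives. It did not pass with limma on FPKM either (adjusted p = 0.0612). The nep-16 gene (WBGene00018472, chromosome IV, 7635660 to 7641858) had the fewest counts of the called genes of its family, 26 and 34 with GNC against 12 and 8 in control worms. Its log2 fold change of 1.36 (standard error 0.39, edgeR adjusted p = 0.0198) did not pass without GNC replicate 2 (adjusted p = 0.170) or without control replicate 2 (adjusted p = 0.108), nor with DESeq2 (adjusted p = 0.107), over a range of 0.0145 to 0.170. Exons of nep-16 overlap those of arf-1.1 in the annotation, and no source says that strand was used in counting.

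The neprilysin genes are unevenly placed in the genome, and those that were higher with GNC lay mostly on the left part of chromosome II. Of the 25 genes, 18 are on chromosome II, 3 each on IV and X and 1 on V. On chromosome II 17 were tested, 4 were called higher and 10 rose at the FDR alone, where 5.87% of all genes tested on that chromosome were called higher and 19.5% rose. A run of 8 genes (nep-19, nep-20, nep-9, nep-10, nep-8, nep-7, nep-6 and nep-11) fills 37253 bp at positions 3388280 to 3425532, with gaps under 10000 bp. Of the 7 that were tested, 6 rose at the FDR alone and 2 of these were called, with a median log2 fold change of 0.87. This median includes nep-19, which met the filter on low counts only in GNC libraries. The summed normalized count of the 8 genes was 58.8 and 63.0 CPM with GNC, against 42.1 and 40.6 CPM in control worms. The log2 ratio of this sum, GNC over control, was 0.56. Of the sum, nep-11 held 27.5 and 29.4 CPM with GNC and 22.6 and 24.8 CPM in control worms. Assignment of fragments to the wrong gene of the family was not tested.

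Within the run, changes were graded and were smallest in its most abundant gene. The nep-8 gene had 129 and 116 counts with GNC and 55 and 60 counts in control worms, a log2 fold change of 0.87 (standard error 0.18, edgeR adjusted p = 0.00366). On the same scale the change was 0.76 for nep-10, 0.60 for nep-6 and 0.26 for nep-11. The test of nep-10 was lost without GNC replicate 1 (adjusted p = 0.0524, range 0.00442 to 0.0524). That of nep-6 was lost without GNC replicate 2 (adjusted p = 0.115) and without control replicate 2 (0.170, range 0.00233 to 0.192). The most abundant gene of the run, nep-11, had 620 and 612 counts with GNC and 411 and 475 counts in control worms, with adjusted p = 0.0429 from edgeR. It did not pass without GNC replicate 1 (0.0658), GNC replicate 2 (0.223) or control replicate 1 (0.145). The spans of nep-6 and nep-11, which lie on opposite strands, overlap by 42 bp. In nep-19 (14 and 19 counts with GNC, 4 and 9 in control worms) only the GNC libraries met the filter on low counts, so this gene had to be higher with GNC to be tested at all, and it did not pass (edgeR adjusted p = 0.0982). The nep-7 gene, with 9 and 14 counts against 5 and 7, was not tested.

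A longer stretch, chosen after the values were seen, runs from nep-18 to nep-25 (chromosome II, 2557778 to 5845020) and holds 15 neprilysin genes. Of the 14 tested, 10 rose at the FDR alone, none fell, and 4 were called higher, with a median log2 fold change of 0.82. This median also includes nep-19. The other 631 genes tested in that stretch had a median of -0.02, with 6.66% of them called higher and 19.7% higher at the FDR alone. The 10 neprilysin genes elsewhere in the genome had a median of 0.02, with 1 higher and 2 lower at the FDR alone. On the right part of chromosome II, nep-17 (13507819 to 13516481) fell, with 1270 and 1123 counts with GNC and 1347 and 1682 counts in control worms. Its normalized count was 55.1 ± 1.74 CPM with GNC and 81.0 ± 9.68 CPM in control worms (SD, n = 2 each). Its log2 fold change of -0.55 (standard error 0.08, edgeR adjusted p = 0.000736) passed when any single library was left out, but not with no filter on low counts (adjusted p = 0.0660).

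**Figure D2:**
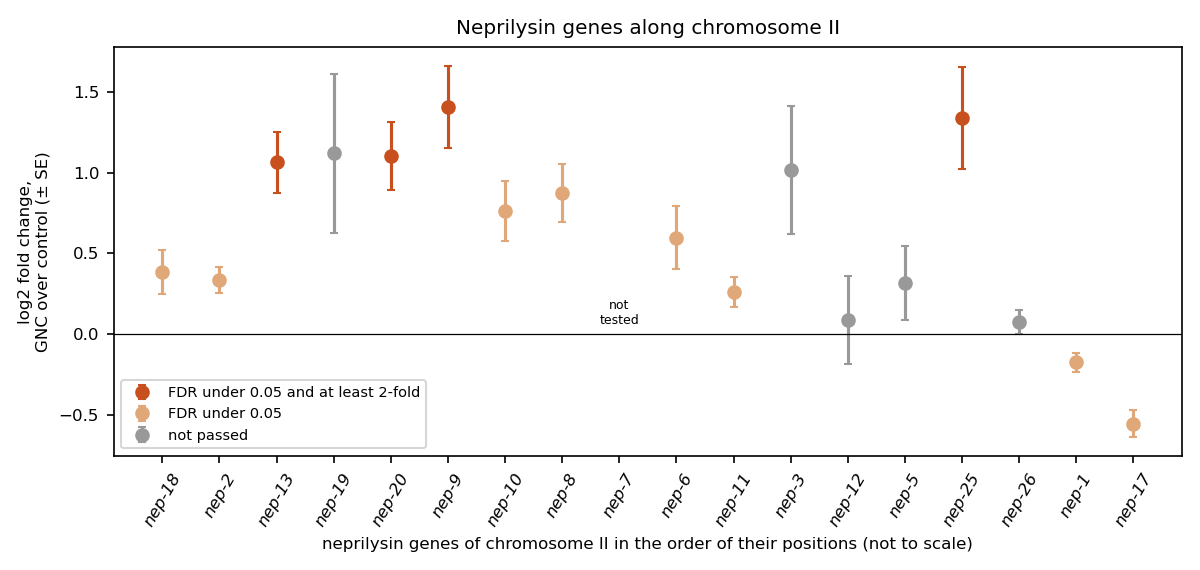
Log2 fold change (GNC over control) of the neprilysin genes of chromosome II in the order of their positions (nep-7 was not tested), with standard errors from edgeR and colours for the outcome of the test. The genes from nep-18 to nep-25 all have positive values, between 0.09 for nep-12 and 1.41 for nep-9. Of these, nep-19 met the filter on low counts only in GNC libraries and so had to be positive. At the right end nep-1 and nep-17 are negative.

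At the left end of the stretch nep-18 rose slightly, with a log2 fold change of 0.38 (edgeR adjusted p = 0.0471), but not without GNC replicate 1 (adjusted p = 0.318) or without control replicate 2 (0.165), over a range of 0.0194 to 0.318. The remaining neprilysin genes tested did not pass. Fold changes were positive in 8 of them (nep-3, nep-4, nep-5, nep-12, nep-19, nep-21, nep-23 and nep-26), at 0.08 to 1.12 on the log2 scale. They were negative in nep-15, nep-22 and nep-24, at -0.51 to -0.03. Nearest to the threshold among the genes of more than 2-fold was nep-3 (35 and 24 counts with GNC, 8 and 17 in control worms), with a log2 fold change of 1.02 and an adjusted p of 0.0671 from edgeR. The abundant nep-22 and nep-26 came after nep-1 in level per gene length. The level of nep-22 was 17.3 ± 0.150 FPKM with GNC and 16.5 ± 0.989 FPKM in control worms, and that of nep-26 was 17.7 ± 0.796 FPKM with GNC and 15.6 ± 0.578 FPKM in control worms (SD, n = 2 each). As normalized counts both genes overlapped between groups, and their order relative to each other was within this spread.

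Among the astacins with a known role, nas-6, the gene of a pharyngeal enzyme, rose at the FDR alone. The genes nas-36 and nas-37, tied to the shedding of the cuticle, did not pass, and neither did nas-7, nas-38 and nas-39. NAS-6 is known to be needed for the grinder, the part of the pharynx that breaks up bacteria. The nas-6 gene (chromosome IV, 17486982 to 17490497) had 82 and 65 counts with GNC, against 32 and 34 counts in control worms. Its groups did not overlap, and its log2 fold change was 0.93 (standard error 0.23, edgeR adjusted p = 0.00977), close to 2-fold. Without GNC replicate 1 its log2 fold change was 0.82, and its test was lost. The gene did not pass with DESeq2 (adjusted p = 0.0604) or in edgeR with no filter on low counts (adjusted p = 0.0514).

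NAS-36 and NAS-37 are known for the shedding of the old cuticle in larvae. The nas-37 gene had 677 and 600 counts with GNC, against 443 and 515 counts in control worms, or 30.1 and 28.8 against 24.4 and 26.9 CPM. Its log2 fold change of 0.20 did not pass (edgeR adjusted p = 0.101). The nas-36 gene had 120 and 109 counts with GNC and 63 and 88 counts in control worms, with a log2 fold change of 0.39 (adjusted p = 0.136). In both genes the GNC libraries lay above the control libraries without overlap. The test of nas-37 passed with upper quartile scaling (adjusted p = 0.0325) and with library totals (0.0203, range 0.0203 to 0.352), and that of nas-36 passed without control replicate 2 (0.0496, range 0.0496 to 0.513).

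The nas-38 gene, which is known to act in the sleep-like state of moulting larvae, had 83 and 88 counts with GNC and 65 and 49 counts in control worms. The log2 fold change of 0.37 had an adjusted p of 0.217 from edgeR. The nas-39 gene, a relative of BMP1 and tolloid, had 316 and 311 counts with GNC and 277 and 249 counts in control worms, with overlapping CPM and a log2 fold change of 0.04 (adjusted p = 0.833). Its sign changed in some of the alternatives.

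The largest rises of both families were in nas-24 and nas-20, small astacin genes of chromosome V. The nas-24 gene (WBGene00003543, 13769669 to 13771326) had 308 and 203 counts with GNC, against 77 and 56 counts in control worms. Its normalized count was 11.7 ± 2.78 CPM with GNC and 3.58 ± 0.929 CPM in control worms (SD, n = 2 each). The replicates of both groups differed, but the lower GNC library still had more than the higher control library, 9.75 against 4.24 CPM. This gave a log2 fold change of 1.72 (standard error 0.22, edgeR adjusted p = 0.000301).

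The nas-20 gene (WBGene00003539, 11470800 to 11472311) had 172 and 169 counts with GNC, against 57 and 42 counts in control worms. The resulting fold change was 1.56 on the log2 scale (standard error 0.20, edgeR adjusted p = 0.000281). Both nas-24 and nas-20 were called in all 14 alternatives that tested against no change. The nas-17 gene (WBGene00003536, 11398916 to 11400528) had fewer counts, 35 and 34 with GNC and 12 and 11 in control worms. Its replicates were close in each group, and the log2 fold change was 1.36 (standard error 0.33, edgeR adjusted p = 0.00906). At this depth the test of nas-17 depended on each GNC library although the log2 fold change stayed between 1.21 and 1.46 over the alternatives, with an adjusted p of 0.0509 without GNC replicate 1 and 0.0586 without GNC replicate 2. It did not pass with DESeq2 (0.0750) or with limma on FPKM (0.0627) either, over a range of 0.00521 to 0.0750. An annotated noncoding RNA gene, K03B8.19, overlaps an exon of nas-17.

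Of the 36 astacin genes, 13 are on chromosome V, where 8 were tested, 3 were called higher and 6.07% of all genes tested were. Both nas-17 and nas-20 belong to runs of astacin genes there, of which nas-16 and nas-18 were hardly detected. The first run (11391932 to 11402690) holds nas-16, nas-18, nas-17 and nas-19. In it, nas-19 had 27 and 15 counts with GNC and 10 and 13 in control worms (log2 fold change 0.64, edgeR adjusted p = 0.238). The nas-16 gene had 2 and 0 counts with GNC and 0 and 3 in control worms, and nas-18 had a single count, in GNC replicate 2. The second run (11470800 to 11477951) holds nas-20, nas-21 and nas-22. The nas-22 gene had 29 and 20 counts with GNC and 8 and 22 in control worms (log2 fold change 0.49, edgeR adjusted p = 0.407), and nas-21, with 17 and 7 against 5 and 6 counts, was not tested. The summed normalized count of the second run was 9.68 and 9.41 CPM with GNC, against 3.85 and 3.65 CPM in control worms.

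The astacin genes that fell were the most abundant of the family. The nas-11 gene (chromosome X, 6713577 to 6716394) led the family in level per gene length, with 40.1 and 41.6 FPKM with GNC and 55.9 and 55.2 FPKM in control worms. It fell, with a log2 fold change of -0.54 (standard error 0.06, edgeR adjusted p = 0.000114). The nas-9 gene (chromosome V, 4836028 to 4840010) had normalized counts of 39.8 and 34.9 CPM with GNC and 57.3 and 63.6 CPM in control worms. This gene fell further, with a log2 fold change of -0.69 (standard error 0.09, edgeR adjusted p = 0.000261). In both genes the groups were apart by more than the spread between replicates, and both passed in all 14 alternatives. Exons of nas-11 overlap those of smf-2, a metal transporter gene. Next in level per gene length after nas-9 came nas-5, with 13.6 and 14.7 FPKM with GNC and 11.9 and 10.3 FPKM in control worms, which did not pass (edgeR adjusted p = 0.114).

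The nas-25 gene rose by a log2 fold change of 0.66 (102 and 76 counts with GNC, 42 and 55 in control worms, edgeR adjusted p = 0.0376). It did not pass without GNC replicate 1 (adjusted p = 0.260) or without control replicate 1 (0.139), over a range of 0.0199 to 0.260, and its exons overlap those of F46C5.2. Fold changes were positive but did not pass in 19 astacin genes, at 0.04 to 0.64 on the log2 scale, and nas-13 and nas-7 were negative and did not pass. The groups overlapped in nas-7, with 42 and 62 counts with GNC and 60 and 48 counts in control worms (log2 fold change -0.27, edgeR adjusted p = 0.482). Nearest to the FDR threshold was nas-8 (130 and 133 counts with GNC, 75 and 89 in control worms), with an adjusted p of 0.0501. Besides those described above and nas-8, the positive ones were nas-1, nas-4, nas-10, nas-14, nas-15, nas-28, nas-29, nas-30, nas-31, nas-32 and nas-33. Replicates of nas-15 disagreed most, with 23 and 4 counts with GNC and 6 and 16 counts in control worms.

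In all, 52 of the 61 genes passed the filter on low counts. The 9 others were nep-7, nas-2, nas-3, nas-12, nas-16, nas-18, nas-21, nas-23 and nas-27, with at most 17 counts in any library. The nas-2 gene had 0 counts in all 4 libraries, which allows up to 3 counts, or 0.138 to 0.161 counts per 1000000 fragments, in each. Differences in these 9 genes were not tested in the main fit, because their counts were too low for the filter. The limits given for nas-2 cover counting error only.

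Summed over each family, the normalized counts differed little between groups. Of the 52 members tested, 20 passed the FDR in either direction (38.5%), close to the share of all genes tested (40.4%). The 25 neprilysin genes summed to 397 and 394 CPM with GNC, against 377 and 401 CPM in control worms, with overlapping groups. The 36 astacin genes summed to 287 and 286 CPM with GNC, against 305 and 309 CPM in control worms, without overlap but with a sign that turned when library totals were used for scaling (log2 ratio -0.10, and 0.00142 with library totals). The split of the sums between abundant and other members was as follows. The 3 neprilysin genes with most counts (nep-1, nep-17 and nep-26) made up 198 CPM of the mean sum of 396 CPM with GNC and 232 of 389 CPM in control worms, and the other 22 summed to 198 ± 2.56 CPM with GNC and 156 ± 0.621 CPM in control worms (SD, n = 2 each). The 3 astacin genes with most counts (nas-11, nas-9 and nas-37) made up 144 of 286 CPM with GNC and 198 of 307 CPM in control worms, and the other 33 summed to 143 ± 1.62 CPM with GNC and 109 ± 3.79 CPM in control worms.

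**Figure D3:**
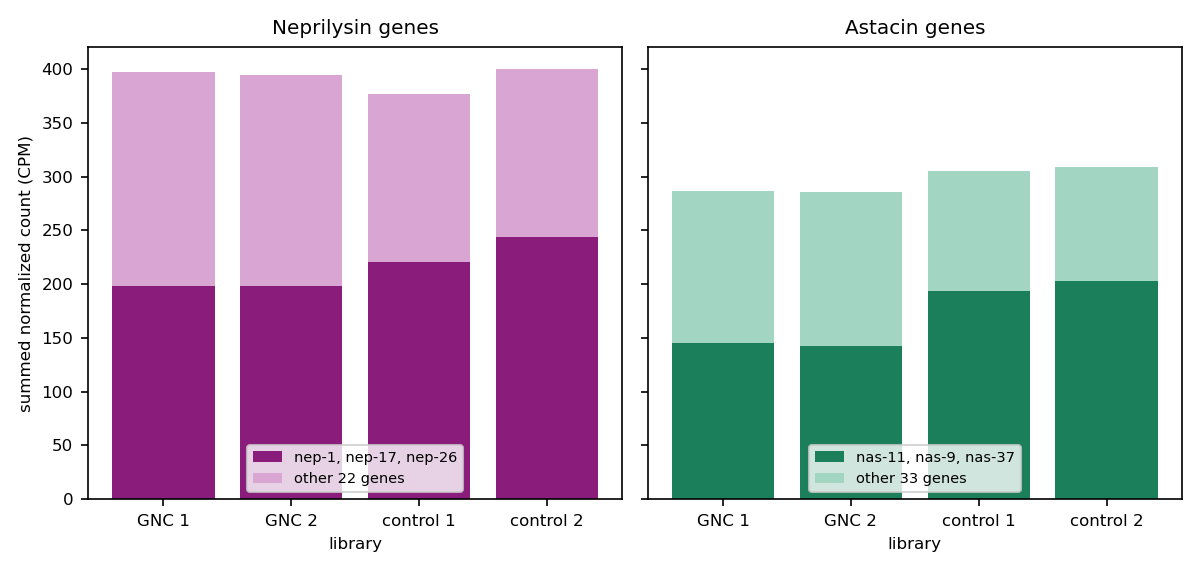
Summed normalized counts (CPM) of the neprilysin genes (left) and the astacin genes (right) in each of the 4 libraries, with GNC before control, split into the 3 genes with most counts (dark) and the other genes (light). The bars differ little in height between groups, the astacin bars in a direction that turned with library totals, while the dark part is 198 CPM with GNC and 232 CPM in control worms for neprilysin genes, and 144 and 198 CPM for astacin genes.

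The fold change also varied with abundance over the whole transcriptome, and most members are genes of low abundance. When all genes tested were divided into 4 equal parts by mean abundance, a division chosen after the values were seen, 22 members fell in the lowest part, 21 in the second, 6 in the third and 3 in the highest. All 8 called members were in the lower parts, below 15.1 CPM. In the lowest part 4 of 22 members were called higher, beside 7.83% of all genes there, and in the second part 4 of 21 were, beside 9.11%. At the FDR alone 5 members of the lowest part and 9 of the second rose, beside 11.1% and 30.1% of all genes there. In the second part these were 6 of 8 neprilysin genes and 3 of 13 astacin genes. In the highest part all 3 members (nep-1, nep-17 and nas-11) fell at the FDR alone, as did 40.2% of all genes there. The median log2 fold change of members and of all genes was 0.47 and 0.16 in the lowest part, which holds nep-19, and 0.43 and 0.19 in the second. It was 0.14 and -0.00 in the third, and -0.54 and -0.12 in the highest. With expression-dependent offsets, an alternative chosen after the values were seen, 3 neprilysin genes (nep-9, nep-16 and nep-25) and 3 astacin genes (nas-17, nas-20 and nas-24) were called higher, and 8 and 4 rose at the FDR alone. The tests of nep-1, nep-6, nep-11, nep-18 and nas-25 were lost under these offsets.

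**Figure D4:**
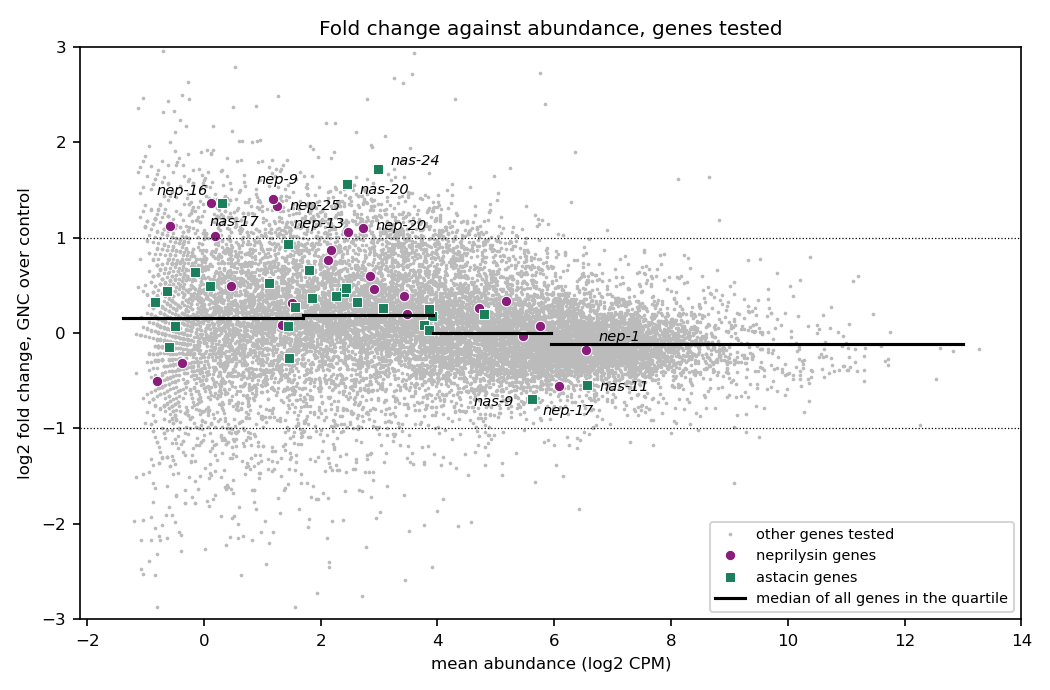
Log2 fold change (GNC over control) against mean abundance (log2 CPM) of the genes tested, with neprilysin genes as circles, astacin genes as squares, other genes in grey, dotted lines at 2-fold and black lines at the median of all genes in each of 4 abundance classes (17 other genes lie outside the range drawn). The called members lie at the upper left, and nep-1, nep-17, nas-9 and nas-11 lie below 0 on the right.

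Whole worms hold many cell types and stages, and in such samples fewer cells of a type and less RNA per cell cannot be told apart. Marker lists were therefore read beside the peptidase genes. Counts of list genes that rose or fell are at the FDR alone, where 19.8% of all genes tested rose and 20.5% fell. Of 34 sperm genes tested, 16 rose at the FDR alone and none fell, and the list summed to 918 and 932 CPM with GNC, against 722 and 720 CPM in control worms. Of 6 male genes tested, 3 rose and 1 fell, and that list summed to 118 and 108 CPM with GNC and 115 and 105 CPM in control worms, with overlapping groups. Within it, try-5, the gene of a seminal fluid protease, rose by a log2 fold change of 1.19, and swm-1, the gene of a trypsin inhibitor, fell (-0.61). Of 12 pharynx genes, 9 were tested, 4 rose and none fell. Among those that rose was the pharyngeal myosin gene myo-2, with a log2 fold change of 0.52. The pharynx list summed to 536 and 583 CPM with GNC and 403 and 421 CPM in control worms. Most of this sum was myo-2, with 336 and 369 CPM with GNC and 239 and 252 CPM in control worms. Of 21 embryo and oocyte genes tested, 2 rose and 15 fell, of which oma-2 was called lower (log2 fold change -1.04). That list summed to 5738 and 6109 CPM with GNC and 5551 and 6257 CPM in control worms. Its most abundant gene, perm-4, rose and held 2720 and 2974 CPM with GNC and 1663 and 2104 CPM in control worms, and the other genes of the list summed to 3018 and 3135 CPM with GNC and 3888 and 4153 CPM in control worms. Of 21 moulting genes tested, 5 rose and 3 fell, of which noah-2 was called lower (log2 fold change -1.02). The median log2 fold change of this list was 0.01. It summed to 517 and 528 CPM with GNC against 458 and 476 CPM in control worms. Of this sum, lrp-1 held 179 and 182 CPM with GNC and 149 and 160 CPM in control worms. Of 9 cuticle collagen genes tested, none rose and 3 fell, of which dpy-5 (log2 fold change -1.42) and dpy-14 (-1.35) were called lower. All 18 collagen genes of the list, tested or not, summed to 73.6 and 72.1 CPM with GNC against at least 99.8 CPM in each control library. Of this sum, dpy-5 held 12.1 and 9.60 CPM with GNC and 26.5 and 31.7 CPM in control worms. The dpy-14 gene held 4.71 and 4.90 CPM with GNC and 12.2 and 12.4 CPM in control worms. No gene of these lists had 0 counts in all libraries. The part of these tissues and stages in the values of the peptidase genes was not tested.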

How the data were processed

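Whole-worm RNA of 2 GNC and 2 control libraries was sequenced on an Illumina HiSeq instrument. The submitters' processing notes name CASAVA 1.8, TopHat2 2.1.0, Cuffdiff and the genome build WBcel235; the counter and the annotation are not given in the sources used here. The authors deposited counts of fragments per gene without normalization, and FPKM values (fragments scaled to gene length and library total). The paper states the 2-fold and FDR thresholds and names no test.

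All 61 members matched the Ensembl WBcel235 annotation, but 1 had identical ends, so positions are those of the deposited table. Strand and overlaps are from the annotation.

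Counts of all genes were filtered (filterByExpr, about 10 counts in at least 2 libraries), TMM-scaled and tested with edgeR 4.0.16 (R 4.3.3). The model held treatment alone. Standard errors were derived from the F statistic. Family and run sums were not tested, because the exact permutation test of 2 against 2 libraries cannot pass 0.05.

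Alternatives were upper quartile scaling, library totals, DESeq2 size factors, DESeq2 1.42.0, no filter, 10 counts in every library, limma 3.58.1 on log2(FPKM + 0.1) where at least 2 libraries reached 1 FPKM, a replicate block, each library left out and a test against the 2-fold threshold. With 2 libraries per group, leaving 1 out assumes that the lone library varies like the others. Members, lists and tests were chosen with earlier results of these data known. Named in full were called members and members with a known role.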

Additional observations from a re-analysis of the deposited data

How the results depend on the processing

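Rescaling to the same median and expression-dependent offsets were chosen after seeing the data. No alternative called a member lower at 2-fold. In edgeR's test against the 2-fold threshold, 0 neprilysin and 0 astacin genes were called (1 and 2 at an unadjusted p under 0.05). The number of neprilysin genes called higher, 5 as reported, was 1 with no filter (nep-9), 3 with limma on FPKM, 3 with expression-dependent offsets and 3 to 5 with a library left out. The number that rose at the FDR alone, 11 as reported, was 3 with no filter, 6 with DESeq2, 6 with limma and 7 to 11 with a library left out. The number that fell, 2 as reported, was 1 (nep-17) with upper quartile scaling, library totals, DESeq2, limma or expression-dependent offsets, 0 with no filter, and 1 to 2 with a library left out. For astacin genes that rose at the FDR alone, 5 as reported, the number was 9 with upper quartile scaling, 9 with library totals, 3 with no filter, 2 with DESeq2 and 2 to 7 with a library left out. The number of astacin genes called higher was 2 to 3 with a library left out. The cause of these differences was not tested. With no filter, 29615 genes were tested, and the spread between replicates was estimated again with the added genes included.

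The summed neprilysin log2 ratio of 0.03 was 0.10 with upper quartile scaling and 0.13 with library totals, and -0.0145 to 0.0672 with a library left out, negative without control replicate 1 alone. The summed astacin ratio of -0.10 was -0.0236 with upper quartile scaling and 0.00142 with library totals, so its direction did not hold under every scaling. Library totals moved the median of all genes to 0.12. The nas-7 log2 fold change was -0.64 to 0.0375 with a library left out, positive without GNC replicate 1 alone. That of nas-39 was -0.0798 to 0.16 with a library left out, negative without GNC replicate 2 (-0.0105) or control replicate 2, and -0.107 with expression-dependent offsets.

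Both groups carry replicate numbers 1 and 2. Deviations from the group means of libraries with one number were hardly correlated (r = 0.04 over genes), so the numbers were not taken as pairs. A replicate block in the model gave 5 neprilysin and 3 astacin genes called higher, and 12 and 6 that rose at the FDR alone.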

Other observations

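Related metallopeptidase genes that carry other symbols were also read from the same test. The table describes hch-1, whose enzyme is known to let larvae hatch, as nas-34. It was called lower with GNC, with 13 and 20 counts against 29 and 35 counts in control worms (log2 fold change -1.16, standard error 0.34, edgeR adjusted p = 0.0225). The gene of the procollagen peptidase DPY-31 had 4085 and 3902 counts with GNC and 4071 and 4603 counts in control worms and fell by 0.33 on the log2 scale (edgeR adjusted p = 0.00199). The gene of its collagen substrate, sqt-3, had 79 and 61 counts with GNC and 42 and 41 counts in control worms and did not pass (log2 fold change 0.53, adjusted p = 0.0859). The table gives toh-1 as nas-26, and toh-1 rose by a log2 fold change of 0.24 (adjusted p = 0.0395).

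Of 8 ADAM and ADAMTS genes tested, 2 rose and 1 fell at the FDR alone, beside 19.8% and 20.5% of all genes tested. None was called at 2-fold, where 4.97% of all genes tested were called higher and 2.23% lower. The gene gon-1, known for the shaping of the gonad, had a log2 fold change of 0.35 (edgeR adjusted p = 0.00650), adm-2 had 0.27 (adjusted p = 0.0157) and unc-71 had -0.50 (adjusted p = 0.000233). The matrix metalloprotease gene zmp-1 (log2 fold change 0.18) and the gene cri-2 of an inhibitor of such enzymes (0.12) did not pass.

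Of the tissue lists, 3 of 8 intestine genes tested rose and 2 fell, and 1 of 6 hypodermis genes rose and 2 fell. In body wall muscle 1 of 8 genes rose and 1 fell, and 3 of 8 neuron genes rose and none fell. These counts are at the FDR alone, where 19.8% of all genes tested rose and 20.5% fell.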
